A study of Astyanax mexicanus with 8 samples.

Results

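The genes described here handle pyrimidine nucleosides. They are cdaa and cdab (cytidine deaminases), upp1 and upp2 (uridine phosphorylases), uck2b (a uridine-cytidine kinase), dctd (deoxycytidylate deaminase), tk1 (cytosolic thymidine kinase) and cad, dhodh and umps (de novo synthesis of uridine monophosphate). They were taken by gene name, ignoring case, from the deposited expression table. All 10 names were found, in 11 of the 27420 listed genes, because 2 entries carry the name upp2. The group was put together around cdaa, which was selected on its measured TPM: high in the cave line, and moving in opposite directions with seeding density in the 2 lines. Those values of cdaa are therefore given below as a description, without a test.

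The libraries come from spheroids of SFL and CFL, cell lines derived from liver of the fish Astyanax mexicanus, the Mexican tetra. SFL is from the surface-dwelling form and CFL from the cave-dwelling form, which the sample titles call Pachon. Both are labelled wild type with no agent named, and were kept for 28 days at 27C in wells to which cells cannot attach, after seeding at 10000, 25000, 50000 or 100000 cells per well. Each line at each density is 1 library, so there are 8 libraries and no replicate of a condition. Each form is represented by 1 cell line, so line and origin cannot be told apart. Values are TPM (transcripts per 1000000), scaled to gene length and to the library total; it keeps no sequencing depth, so depth is unknown and a value of 0 is described as listed at 0. Every ± is an SD taken across a line's 4 densities and so contains the effect of density.

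Cells obtain pyrimidine nucleotides by 2 routes. In de novo synthesis, the cytosolic multienzyme protein CAD makes dihydroorotate, dihydroorotate dehydrogenase (DHODH) of the inner mitochondrial membrane oxidises it to orotate, and UMP synthase (UMPS) completes uridine monophosphate. In salvage, uridine-cytidine kinases and thymidine kinases phosphorylate nucleosides that are taken up or released by RNA and DNA turnover. Cytidine deaminase converts cytidine and deoxycytidine to uridine and deoxyuridine, and uridine phosphorylase splits uridine to uracil, which is then either reused or degraded. The liver is known in mammals as the organ that degrades circulating uridine and replaces it.

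The labelled origin was compared with marker genes. Of 24 hepatocyte markers listed, 18 were found by name and 9 had a mean of at least 1 TPM over the 8 libraries; ttr and fetub were listed at 0 throughout and hnf4a did not exceed 0.31 TPM. The summed level of that list was 452 to 572 TPM in SFL and 18.4 to 34.6 TPM in CFL. The SFL sum was mostly rbp4 (mean 263 TPM) and cebpa (122 TPM). In the other direction, cps1 (3.03 against 10.5 TPM) and tat (0.005 against 1.84) had the higher means in CFL. So did fabp10a, fgg and hnf4a, each under 1 TPM on average in both lines. A list of cholangiocyte genes summed to 6884 to 9439 TPM in SFL and 1138 to 1551 TPM in CFL, mostly krt8 and krt18a.1; onecut1 was listed at 0. Other genes of that list ran the other way, with hnf1bb at 3.80 ± 1.89 TPM in SFL against 292.5 ± 47.7 in CFL and sox9a at 1.36 ± 0.51 against 28.5 ± 4.06. The fibroblast and stellate list summed to 569 to 675 TPM in SFL and 191 to 328 TPM in CFL (hand2 and postnb at 0). Higher in SFL were tagln (means 312 against 80.8 TPM), acta2 (99.0 against 0.31), col1a1a (36.6 against 4.33) and dcn (21.5 against 2.82). col1a2 lay closer (162.5 against 141.4). In the other direction, pdgfra (0.14 against 13.7 TPM), pdgfrb (0.71 against 6.50), col5a1 (1.69 against 9.30) and lum (0.10 against 0.97) had the higher means in CFL. The endothelial list summed to 124 to 195 and 17.2 to 33.5 TPM (egfl7 at 0), mostly kdr and kdrl. Its genes cdh5, pecam1, stab1 and stab2 did not exceed 0.18 TPM in any library, while tek reached 3.55 TPM. The macrophage list summed to 54.5 to 103 and 37.0 to 62.0 TPM (lyz at 0). This was mostly 1 MPEG1 entry (ENSAMXG00000015353, means 66.8 and 52.3 TPM). Its genes csf1ra, PTPRC, cd74a and spi1b did not exceed 0.53 TPM, while an MFAP4 entry reached 3.14 TPM. In bulk RNA, fewer cells of a type and less RNA per cell cannot be told apart. The sums of these lists, and single members in either direction, move with the line comparison, and their part in the differences below was not tested.

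cdaa (ENSAMXG00000034539) was an abundant transcript in CFL only. In SFL it did not exceed 16.4 TPM, although it lay above cdab, the other cytidine deaminase, in every library. In CFL it stood at 2017 TPM after seeding 10000 cells, 1590 TPM at 25000, 1223 TPM at 50000 and 973 TPM at 100000. In SFL it stood at 4.08, 9.65, 13.3 and 16.4 TPM at the same densities. The order of the 8 libraries was thus complete: CFL values were lower at each larger seeding, SFL values were higher at each, and the lowest CFL value was far above the highest SFL value. With 1 library per condition, neighbouring densities of a line cannot be separated from the spread between spheroid cultures.

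The ratio of CFL to SFL narrowed from 494 at 10000 cells to 165 at 25000, 92.0 at 50000 and 59.5 at 100000. From 10000 to 100000 cells cdaa was 4.01 times higher in SFL, and in CFL the value at 10000 was 2.07 times that at 100000. Among all listed genes cdaa ranked 78, 93, 126 and 150 by TPM in CFL and 10324, 7370, 5283 and 4960 in SFL, in order of density. The line means were 10.9 ± 5.28 TPM in SFL and 1451 ± 455 TPM in CFL (SD, n = 4).

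TPM values of all genes depend on how much of a library the most abundant genes take, so each library was also rescaled by the median of its gene ratios (median-of-ratios scaling). cdaa then read 3.41, 8.36, 15.7 and 17.3 in SFL and 1738, 1367, 1552 and 1057 in CFL, from the smallest to the largest seeding. The SFL order was as before. In CFL the value at 50000 cells now lay above that at 25000, while 10000 remained the highest and 100000 the lowest.

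**Figure D1:**
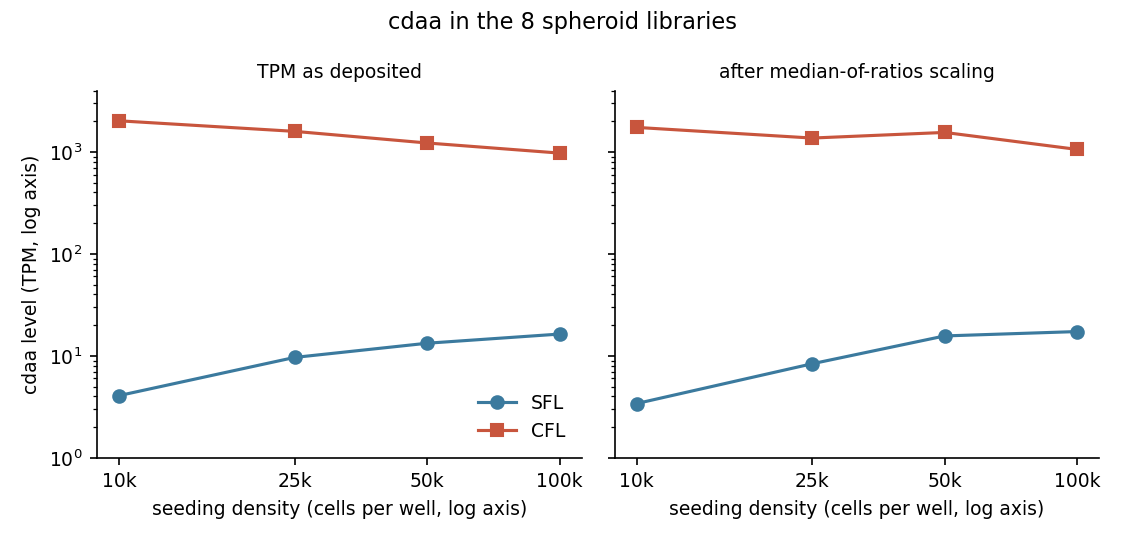
Level of cdaa (TPM, log axis) against seeding density (cells per well, log axis), as deposited on the left and rescaled by the median of ratios on the right; each point is 1 library. CFL lies between 973 and 2017 TPM as deposited and SFL between 4.08 and 16.4 TPM, with CFL falling and SFL rising towards larger seedings.

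Genes with a pattern like that of cdaa were looked for among 7916 genes with a symbol and a mean of at least 5 TPM. By Pearson correlation of log2(TPM + 1) over the 8 libraries, the nearest were tmem26a and pyyb (r = 0.998 each), prdx1 (0.997), ugt5g1 (0.996) and IGFBP3 (0.996). This measure follows mostly the line difference. All of these genes read higher at 100000 than at 10000 cells in SFL, and lower in CFL. They were picked for likeness to cdaa over these same libraries, so this shared movement is no separate observation. In SFL, tmem26a, pyyb, ugt5g1 and IGFBP3 averaged 1.36, 1.21, 0.53 and 0.49 TPM. They passed the minimum of 5 TPM through CFL, and their SFL values are near the floor. pyyb, which encodes a peptide YY, was at 0.58, 1.28, 1.33 and 1.65 TPM in SFL and at 68.5, 76.7, 56.5 and 47.5 TPM in CFL. prdx1, an abundant peroxiredoxin, went from 855 to 1047 TPM in SFL and from 3306 to 2749 TPM in CFL between 10000 and 100000 cells.

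When only deviations from each line's mean were compared, the nearest were rnf144b (r = 0.990), CPA1 (0.976), ppp1r3cb (0.967), nes (0.943) and alkal2b (0.940). rnf144b, an E3 ubiquitin ligase gene, read 3.00, 4.83, 5.31 and 6.33 TPM in SFL and 8.37, 7.15, 6.10 and 5.02 TPM in CFL. It was picked for moving with density as cdaa did, and its line means, 4.87 and 6.66 TPM, lay close together. CPA1, a carboxypeptidase A gene, was the reverse of cdaa in level, with a mean of 689 TPM in SFL against 7.62 in CFL. The 8 libraries form 2 clusters and share their scaling, so these r are descriptions without a p.

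In the RefSeq annotation of the surface assembly AstMex3_surface, the protein-coding genes following cdaa are pink1, agmat, dnajc16 and iyd, and mul1b lies on the other side beyond fam43b. The gene directly before cdaa, LOC107197367, was not matched to an entry and has no level here. pink1, a mitochondrial quality-control kinase, averaged 51.7 TPM in SFL and 24.0 TPM in CFL, agmat averaged 31.3 and 30.7 TPM, and mul1b 19.4 and 8.95 TPM. iyd, an iodotyrosine deiodinase gene, averaged 0.593 TPM in SFL and 8.51 TPM in CFL. fam43b and the unnamed gene between it and LOC107197367 were listed at 0 in every library.

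The other cytidine deaminase and upp2 were nearly silent. cdab (ENSAMXG00000032243) was at 0.44, 1.96, 0.44 and 1.1 TPM in SFL in order of density, and in CFL was listed at 0 in 3 libraries and at 0.38 TPM at 50000 cells. upp2 (ENSAMXG00000036087) was at 0.60, 0.05, 0.20 and 1.54 TPM in SFL, and in CFL at 0.09 TPM at 10000 cells and at 0 in the other 3. The second entry named upp2 (ENSAMXG00000040182) did not exceed 0.06 TPM. All 3 had a mean under 1 TPM and were not tested. The remaining 8 entries passed this minimum.

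Line differences of the other 7 tested genes were fitted with limma over all 13783 genes with a mean of at least 1 TPM, as CFL minus SFL on log2(TPM + 1) with log2(density) as covariate; adding 1 makes differences of genes at a few TPM read smaller than their ratios. At an adjusted p-value (Benjamini-Hochberg over all genes tested) under 0.05, 5 of the 7 were higher and 1 lower in CFL, where 58.9% of all genes were called, 27.6% higher and 31.3% lower. Their median difference was 0.94, against -0.04 over all genes. In 4 of the 7 every CFL library lay above every SFL library, as in 22.2% of all genes, and in 1 every CFL library lay below, as in 26.8%.

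upp1 (ENSAMXG00000043246) showed the largest of these differences. It was at 21.0, 20.2, 10.5 and 11.4 TPM in SFL and at 132, 129, 88.3 and 128 TPM in CFL, in order of density. The lines did not overlap, and the CFL library at 50000 cells was the lowest of its line. The difference was 2.89 on the log2 scale (SE 0.20, limma adjusted p = 5.44e-06), a ratio of line means of 7.56. The ratio of CFL to SFL at matched density was 6.25, 6.39, 8.44 and 11.2, so it widened with density where that of cdaa narrowed.

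Among these genes the salvage kinases tk1 and uck2b were also higher in CFL. The wider list of salvage and nucleotide kinases, given below, held genes in both directions. tk1 (ENSAMXG00000020703), which phosphorylates thymidine and is most abundant in S phase, was at 24.3, 36.4, 18.2 and 19.4 TPM in SFL and at 56.4, 65.2, 43.6 and 44.4 TPM in CFL. The lines did not overlap, and 25000 cells gave the highest value in both. Its difference was 1.09 (SE 0.20, limma adjusted p = 0.00145). uck2b (ENSAMXG00000018974) was at 13.3, 8.98, 8.62 and 8.96 TPM in SFL and at 21.0, 23.9, 16.3 and 18.6 TPM in CFL. The lines again did not overlap, and the difference was 0.94 (SE 0.14, limma adjusted p = 0.000548). dctd (ENSAMXG00000035628), which makes deoxyuridylate for thymidylate synthesis, was at 14.3, 11.4, 7.99 and 5.63 TPM in SFL and at 17.6, 16.1, 12.1 and 11.7 TPM in CFL. CFL was higher at all 4 matched densities although the lines overlapped, and the difference was 0.56 (SE 0.13, limma adjusted p = 0.00715).

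The 3 genes of de novo synthesis did not share a direction. umps (ENSAMXG00000000103) was at 29.2, 21.99, 20.3 and 18.5 TPM in SFL and at 60.7, 65.1, 39.9 and 43.0 TPM in CFL, without overlap. Its difference was 1.17 (SE 0.12, limma adjusted p = 6.52e-05). cad (ENSAMXG00000018012) was at 21.9, 19.95, 11.3 and 12.5 TPM in SFL and at 27.2, 28.6, 14.4 and 16.4 TPM in CFL. The lines overlapped, but CFL was higher at each matched density. Its difference of 0.37 (SE 0.18) did not pass (limma adjusted p = 0.101); it passed with density as a replicate block (0.00385), under both rescalings (0.00703 for median of ratios and 0.00246 for quantile normalization) and without CFL at 50000 cells (0.032).

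dhodh (ENSAMXG00000036900) was the lower gene in CFL. It stood at 10.7, 9.42, 11.3 and 11 TPM in SFL and at 7.81, 7.24, 9.06 and 8.82 TPM in CFL, without overlap and with little spread. Its difference was -0.33 (SE 0.12, limma adjusted p = 0.0378). The call was lost after median-of-ratios scaling (-0.29, adjusted p = 0.157) and quantile normalization (-0.31, 0.158). After median-of-ratios scaling, 6 of the 7 genes were called higher and 0 lower, against 31.3% and 31.8% of all genes; quantile normalization gave the same 6 and 0, against 33.1% and 31.1%. Without any rescaling the dhodh call was also lost, with adjusted p up to 0.121, in 6 of the 8 fits that left out a library, those without SFL at 10000, 50000 or 100000 cells and without CFL at 10000, 25000 or 100000.

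**Figure D2:**
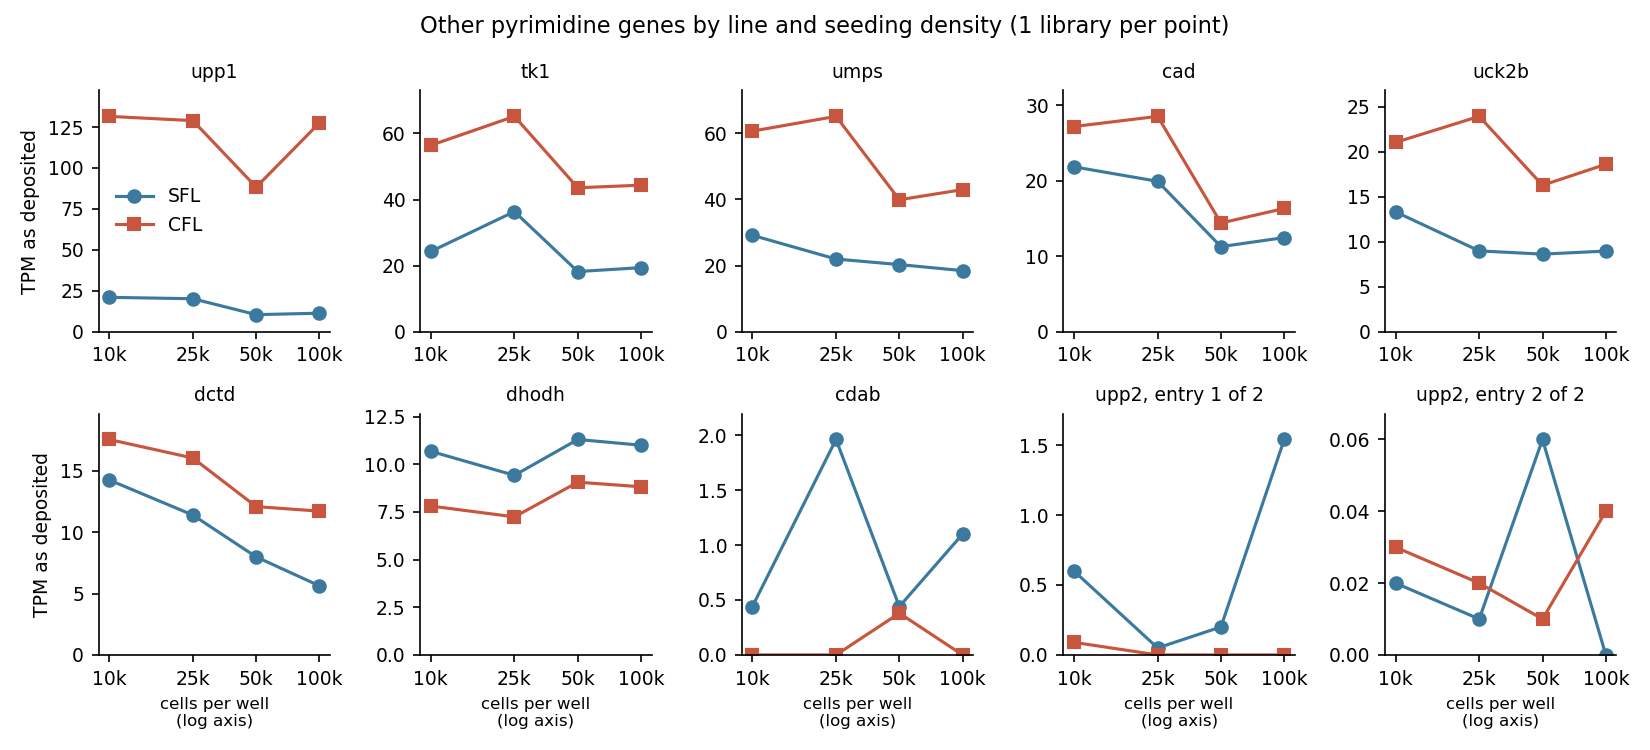
TPM as deposited of the 10 other entries (each panel its own linear axis from 0) against seeding density (cells per well, log axis); each point is 1 library of SFL or CFL. upp1, tk1, umps and uck2b are higher in every CFL library than in any SFL library, dhodh is lower, and cdab and upp2 stay below 2 TPM.

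**Figure D3:**
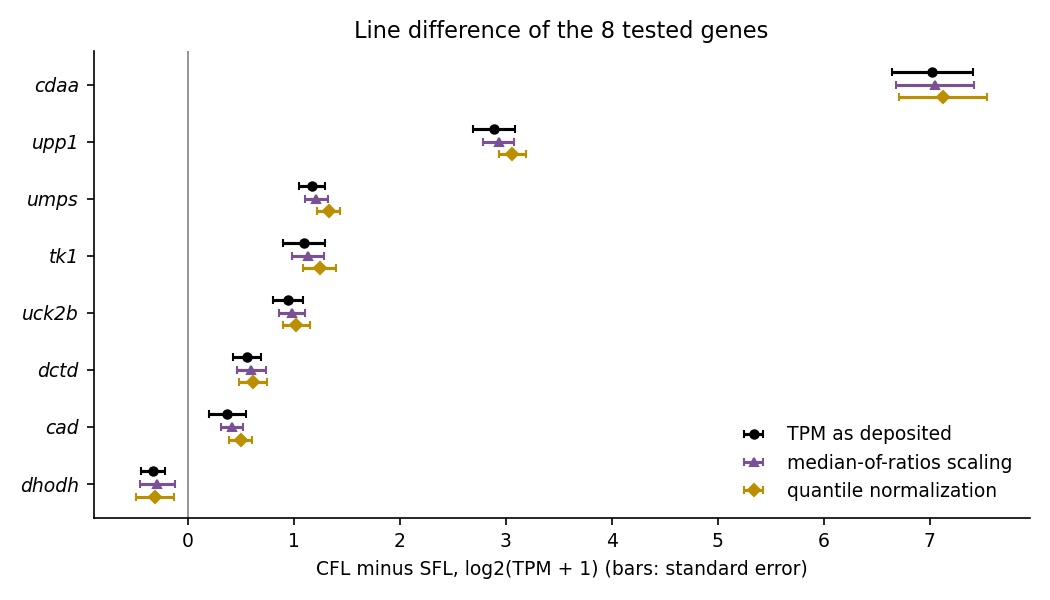
CFL minus SFL on log2(TPM + 1) for the 8 genes that passed the expression minimum, with standard errors, as deposited and after the 2 rescalings. The bars of cdaa describe its fit and are not a test, because it was chosen on these values. cdaa, given without a test, stands at 7.02, upp1 at 2.89, the next 5 genes between 0.37 and 1.17 and dhodh at -0.33 as deposited; no difference changes sign with the scaling.

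The cell cycle was measured beside these genes because tk1, dctd, cad and umps serve dividing cells. The 24 tested entries of a cell cycle list held 16 higher and 1 lower in CFL, where 27.6% of all genes were higher and 31.3% lower, and their summed level was 209 to 430 TPM in SFL and 372 to 568 TPM in CFL. As deposited, this sum was higher after small than after large seedings in both lines. It was 362 to 430 against 209 to 262 TPM in SFL, and 534 to 568 against 372 to 379 TPM in CFL. Of the 24 entries, limma called 18 lower and 0 higher after large seeding as deposited, against 44.8% and 3.25% of all genes. With median-of-ratios scaling it called 7 lower and 0 higher, against 20.9% and 23.5%. Within SFL this scaling left 2 lower and 0 higher, against 9.66% and 9.37% of all genes. Within CFL it left 0 lower and 1 higher, against 16.1% and 17.2%, with a median effect of -0.02. The part of cell division in the differences of the pyrimidine genes was not tested.

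Seeding density was tested first as 1 slope on log2(density) for the 2 lines together. None of the 7 genes other than cdaa passed with limma (smallest adjusted p = 0.0888), as in 0% of all genes. An unadjusted p under 0.05 was found for 3 of the 7, and for 5026 of all 13783 genes. With density as a factor of 4 levels in place of the slope, 5 of the 7 passed limma's F test, as did 35.9% of all genes. Earlier results of these data had set the 2 smaller apart from the 2 larger densities, so 50000 and 100000 cells (large) were also compared with 10000 and 25000 cells (small). In that contrast 5 of the 7 were lower after large seeding and 0 higher (limma adjusted p under 0.05), where 48% of all genes were called, 44.8% lower and 3.25% higher. In 6 of the 7 both large seedings lay below both small ones in each line, as in 47.1% of all genes. This imbalance of all genes depends on the scaling. After median-of-ratios scaling 20.9% of all genes were called lower and 23.5% higher, the median change of all genes moved from -0.30 to 0.04, and 1 of the 7 genes was lower and 1 higher. Quantile normalization gave the same 1 and 1, with 19.5% of all genes lower and 22.5% higher.

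cad was the gene that fell under every scaling. Its effect of large seeding was -0.79 as deposited (SE 0.09, limma adjusted p = 0.000488), -0.39 after median-of-ratios scaling (adjusted p = 0.00266) and -0.39 after quantile normalization (0.00361). After median-of-ratios scaling cad read 18.3, 17.3, 13.3 and 13.2 in SFL and 23.4, 24.6, 18.3 and 17.8 in CFL, so both large seedings lay below both small ones in each line. After this scaling that held for cad alone of the 7, and for 22.2% of all genes. dctd (-0.65, limma adjusted p = 0.00425), upp1 (-0.58, 0.0103), tk1 (-0.54, 0.00627) and umps (-0.48, 0.00522) fell as deposited. None of these 4 passed after either rescaling, with adjusted p from 0.0768 to 0.591.

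dhodh ran against the others. Its effect of large seeding was 0.18 as deposited (limma adjusted p = 0.127) and 0.56 when rescaled by the median of ratios (adjusted p = 0.00237), where it read 8.92, 8.16, 13.3 and 11.6 in SFL and 6.73, 6.23, 11.5 and 9.58 in CFL. Both large seedings lay above both small ones in each line under both scalings, as in 4.48% of all genes as deposited and 25.9% after rescaling. uck2b did not pass under any of the 3 scalings, at -0.32 as deposited and 0.07 when rescaled by the median of ratios.

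The relation between cad and dhodh can be read within each library, where a scaling by 1 factor per library cancels; quantile normalization does not cancel in this way. The ratio of cad to dhodh TPM was 2.05, 2.12, 0.999 and 1.14 in SFL and 3.48, 3.95, 1.59 and 1.85 in CFL, in order of density. In both lines it was lower after large seeding, and at every density it was higher in CFL. The ratio of umps to dhodh was 2.73, 2.33, 1.80 and 1.68 in SFL and 7.77, 8.996, 4.41 and 4.87 in CFL, without overlap between the lines. These ratios were chosen after the values had been seen. Permuting the small and large classes within lines allows 36 arrangements and no two-sided p under 0.0556, so none is given. The line comparison of these ratios was not tested.

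Within the lines, 4 of the 7 genes were lower after large seeding in SFL (cad, dctd, tk1 and upp1; limma called 27% of all genes, 25.8% lower and 1.15% higher) and 2 of the 7 were in CFL (cad and umps; 36.5% called, 34% lower and 2.43% higher). After median-of-ratios scaling, cad and upp1 were lower and dhodh higher in SFL (9.66% of all genes lower, 9.37% higher), and cad was lower and dhodh higher in CFL (16.1% lower, 17.2% higher). After quantile normalization, none of the 7 passed in SFL (7.55% of all genes lower, 6.12% higher), and cad was lower and dhodh higher in CFL (15.7% lower, 15.8% higher). cad fell by 0.77 in SFL (SE 0.13, limma adjusted p = 0.0132) and by 0.82 in CFL (SE 0.13, adjusted p = 0.00508). upp1 fell by 0.86 in SFL (SE 0.16, limma adjusted p = 0.0146) and read -0.29 in CFL (SE 0.16, adjusted p = 0.202). These calls rest on 2 libraries a side. Leaving out 1 of them leaves a single library on its side. In such fits the SFL effect ran from -0.83 to -0.70 for cad and from -1.05 to -0.61 for dctd. It ran from -0.92 to -0.35 for tk1 and from -0.91 to -0.81 for upp1. In CFL it ran from -0.91 to -0.74 for cad and from -0.64 to -0.54 for umps. What became of the calls over all genes in such fits is described below. cdaa, described without a test, moved by 1.1 in SFL and by -0.71 in CFL.

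The difference of the seeding effect between the lines was tested for the 7 genes, and none passed (limma adjusted p from 0.574 to 0.978, 0% of all genes called). The lowest belonged to upp1, whose effect was 0.57 higher in CFL (SE 0.23, unadjusted p = 0.0408), the only one of the 7 with an unadjusted p under 0.05. Of all 13783 genes, 1132 had an unadjusted p under 0.05 in this contrast. With log2(density) in place of the 2 classes, 0 of the 7 had an unadjusted p under 0.05 for a difference in slope, against 560 of all 13783 genes. For cdaa the corresponding difference was -1.81 on the log2 scale, which its choice had used.

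**Figure D4:**
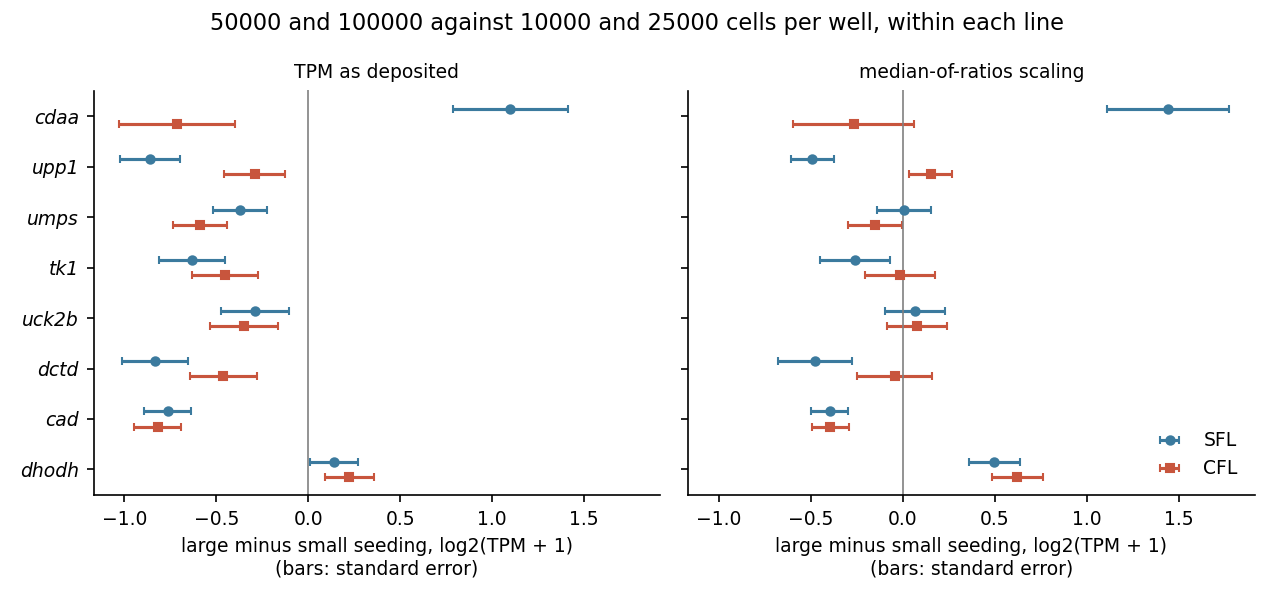
Large (50000 and 100000 cells per well) minus small (10000 and 25000) seeding on log2(TPM + 1) within SFL and CFL. The 8 genes that passed the expression minimum are shown with standard errors, as deposited and rescaled by the median of ratios. cdaa, given without a test because it was chosen on these values, is at 1.1 in SFL and -0.71 in CFL as deposited. cad stays below 0 and dhodh above 0 in both lines and both panels.

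Of 63 further symbols of pyrimidine and deoxynucleotide metabolism, 48 were found and 43 entries tested. limma called 17 higher and 8 lower in CFL, against 27.6% and 31.3% of all genes, with a median difference of 0.18 against -0.04 over all genes. Of the 43, 3 entries had a mean under 1 TPM in 1 line and passed the minimum through the other; without them 17 of 40 were higher and 6 lower. After large seeding 22 of the 43 were lower and 2 higher as deposited, near the 44.8% and 3.25% of all genes. With median-of-ratios scaling 9 were lower and 7 higher, near the 20.9% and 23.5% of all genes. The all-gene shares of 27.6% higher and 31.3% lower are the background for each of the lists that follow, which are small. Among salvage and nucleotide kinases, 5 of 12 were higher and 2 lower, and 5 and 1 of the 10 that reached 1 TPM on average in both lines. dtymk, thymidylate kinase, averaged 8.24 ± 1.47 TPM over SFL and 18.2 ± 2.19 TPM over CFL (SD, n = 4; difference 1.06, limma adjusted p = 0.000395), and dguok, mitochondrial deoxyguanosine kinase, averaged 7.09 ± 0.35 and 14.2 ± 1.91 TPM (0.90). uckl1a, a uridine-cytidine kinase-like gene, averaged 2.33 ± 0.58 TPM across the SFL libraries and 0.36 ± 0.09 TPM in CFL, and passed the expression minimum through SFL alone, so its difference is a description.

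Of 6 nucleoside transporters, 3 were higher and 2 lower in CFL, where 27.6% of all genes were higher and 31.3% lower; of the 5 that reached 1 TPM on average in both lines, 3 were higher and 1 lower. slc29a1a, an equilibrative nucleoside transporter, read 39.0, 32.2, 15.1 and 16.2 TPM in SFL and 111, 94.4, 35.95 and 40.9 TPM in CFL. Its line difference was 1.37 (SE 0.22, limma adjusted p = 0.000698). It also fell with large seeding, by 1.26 as deposited (limma adjusted p = 0.000488) and by 0.85 with values rescaled by the median of ratios (0.00099). The sodium-coupled nucleoside transporter slc28a1 was at 13.6, 10.5, 8.85 and 12.1 TPM in SFL and at 0.53, 1, 1.36 and 1.90 TPM in CFL (difference -2.50, SE 0.21, limma adjusted p = 1.66e-05). slc29a1b, a second equilibrative transporter gene, was listed at 0 in 3 CFL libraries and at 0.14 TPM in the other, and reached 3.18 to 9.21 TPM in SFL; it passed the expression minimum through SFL alone and is likewise only described.

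Of 9 catabolic genes 3 were higher and 2 lower in CFL, close to the shares of all genes (27.6% and 31.3%). dpys, dihydropyrimidinase of uracil and thymine breakdown, averaged 1.06 ± 0.20 TPM over SFL and 3.28 ± 1.05 TPM over CFL (SD, n = 4; difference 1.02, limma adjusted p = 0.0011). The 5'-nucleotidase genes nt5c2a (0.94) and nt5c2b (-0.98) differed in opposite directions. The symbol dpyd, dihydropyrimidine dehydrogenase, was in the list but carried by no entry; dpyda.3, named as a duplicate of that gene, was picked after its values were seen. It read 9.44, 7.81, 6.34 and 4.62 TPM in SFL and 134, 142, 107 and 136 TPM in CFL. The difference of 4.05 (SE 0.15) is therefore given as a description, without a test.

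Of 16 genes of CTP, deoxynucleotide and folate metabolism, 6 were higher and 2 lower in CFL, against 27.6% and 31.3% of all genes. shmt1, the cytosolic serine hydroxymethyltransferase, averaged 54.6 ± 13.5 TPM over SFL and 110.5 ± 37.3 TPM over CFL (0.98), while its mitochondrial relative shmt2 ran from 123 to 176 TPM in SFL and from 63.3 to 102 TPM in CFL (-0.91). mthfd1a, a folate-interconverting enzyme gene, averaged 6.40 ± 1.45 TPM over SFL and 1.04 ± 0.50 TPM over CFL (-1.87). rrm1, the large subunit of ribonucleotide reductase, fell with large seeding by 1.03 as deposited (limma adjusted p = 0.000488) and by 0.62 with values rescaled by the median of ratios (0.0012). samhd1, which degrades deoxynucleoside triphosphates, fell by 1.03 (0.0011) and 0.67 (0.00386) in the same 2 fits. In the list of salvage and nucleotide kinases above, nme2b.1, a nucleoside diphosphate kinase, rose by 0.54 (0.000801) and 0.96 (0.00099) in these fits. Of the 12 tested in that list, 4 were lower and 1 higher after large seeding as deposited, against 44.8% and 3.25% of all genes. With median-of-ratios scaling 2 were lower and 3 higher, against 20.9% and 23.5%.

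Of 10 other nucleoside and RNA deaminases tested, 2 were higher and 3 lower in CFL, close to the 27.6% and 31.3% of all genes. Of the 8 that reached 1 TPM on average in both lines, 2 were higher and 1 lower. ada2b, an adenosine deaminase of the secreted type, was at 20.3, 13.8, 11.1 and 14.0 TPM in SFL and at 0.03 to 0.17 TPM in CFL; it passed the minimum through SFL alone and is described without a test. adal, an adenosine deaminase-like gene, averaged 5.72 ± 1.03 TPM over SFL and 26.7 ± 2.63 TPM over CFL (SD, n = 4; difference 2.05, limma adjusted p = 2.15e-06). ada, adenosine deaminase itself, fell with large seeding, by 1.13 as deposited (limma adjusted p = 0.00139) and by 0.73 with values rescaled by the median of ratios (0.00537). The RNA editing enzyme gene adarb1b was at 2.88 ± 1.63 and 0.47 ± 0.34 TPM, and also passed the minimum through SFL alone.

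**Figure D5:**
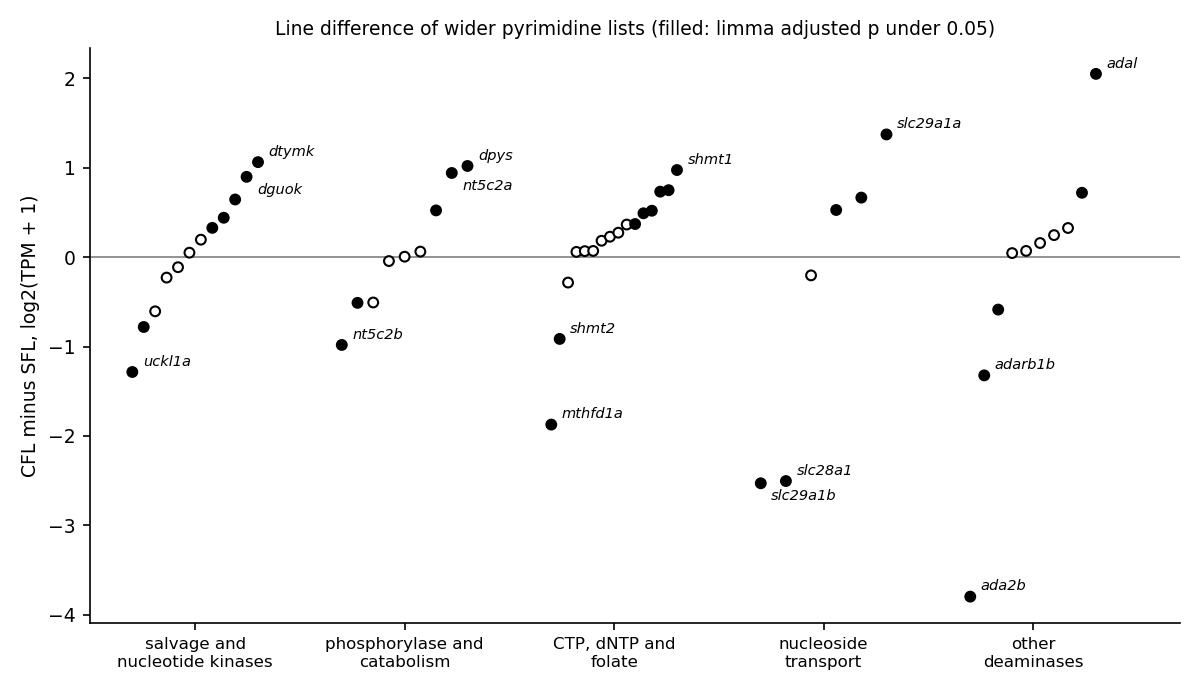
CFL minus SFL on log2(TPM + 1) for every tested gene of 4 wider pyrimidine lists and of the other deaminases; each point is 1 gene, filled where limma's adjusted p was under 0.05, and the 3 called genes of each list with the largest difference are named. Values run from -3.80 for ada2b to 2.05 for adal, and each list holds genes in both directions; uckl1a, slc29a1b, ada2b and adarb1b passed the expression minimum through SFL alone.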

How the data were processed

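RNA of 8 spheroid libraries was sequenced as single reads of 75 bases from stranded libraries of messenger RNA, per the labels. STAR 2.7.3a and RSEM 1.3.0 are named in the submitters' processing notes; the genome build, annotation, strand setting and any pooling of wells are not given in the sources used here. The deposited table holds TPM values made by the authors, which sum to 1000000 per library within rounding. All 8 value columns were mapped by sample title.

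From these, log2(TPM + 1) was computed, genes with a mean of at least 1 TPM were kept (13783), and linear models were fitted with limma 3.58.1 (eBayes with trend) in R 4.3.3. All fits used the 8 libraries, except those that left 1 out. The fits were also run on simulated data with independent noise, the spread left after density was fitted, and few changed genes. In these libraries most genes were called between the lines and density is part of the spread. That run therefore cannot show the error rates of the fits here. Summaries and figures used Python 3.11.15. p-values measure only the spread between these libraries. The members, gene lists and the small against large contrast were chosen with earlier results of these data known. Alternatives were median-of-ratios scaling, quantile normalization, a pseudocount of 0.1, a minimum of 5 TPM or none, leaving out each library, a density block and density as a factor.

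The pairing of lines comes from the seeding density in the titles. Across genes, the 2 libraries of a density deviated together from the means of their lines, with r of 0.514, 0.492, 0.639 and 0.308 from the smallest to the largest density. SFL at 25000 with CFL at 10000 cells gave 0.522, so the pairing does not separate the 2 smaller densities. SFL at 50000 with CFL at 100000 cells gave 0.379, and SFL at 100000 with CFL at 50000 gave 0.39. Both lay above the 0.308 of the matched pair at 100000 cells, so the larger densities are not cleanly separated either.

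Genes were named as all members, the 3 called genes per list with the largest line difference, up to 3 called genes per list in the seeding contrast (of which only some are printed), and the 5 genes most like cdaa by each measure. The cell type markers, the neighbours of cdaa and dpyda.3 were named outside this rule. Where 2 genes share a name or nearly the same sequence, how reads were divided between them is not known.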

Additional observations from a re-analysis of the deposited data

Results flagged for a closer look

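In each line, the highest or lowest of the 4 libraries was compared with the other 3 for every member (22 groups). In 4 groups the gap, as a share of the range, exceeded Dixon's critical value; chance gives this in about 1 in 20 groups of true replicates, and these libraries differ in density. uck2b in SFL stood at 13.31 TPM at 10000 cells against 8.62 to 8.98 TPM in the others. upp1 in CFL stood at 88.31 TPM at 50000 cells against 127.6 to 131.5 TPM. cdab in CFL stood at 0.38 TPM at 50000 cells and upp2 (ENSAMXG00000036087) in CFL at 0.09 TPM at 10000 cells, where the other 3 libraries were listed at 0. In such a group the gap is the whole range whatever the value, so the flag follows from the libraries listed at 0.

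Among the member entries, cdaa was the 1 for which every larger seeding lay above 10000 cells in SFL and below it in CFL. From 10000 to 100000 cells it changed by 1.77 on log2(TPM + 1) in SFL and by -1.05 in CFL. cdaa had been chosen for this pattern, and the difference was not tested. The pattern is not particular to cdaa. It was also seen in rnf144b, CPA1, ppp1r3cb, nes and alkal2b, which were picked above for likeness to cdaa. The share of all genes with this pattern was not counted.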

How the results depend on the processing

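Of 469 comparisons of a log2 difference of the 7 tested members other than cdaa with its value under an alternative, 394 kept direction and side of the threshold, 45 lost the call, 13 gained it and 17 changed sign. Many of these comparisons could not change direction. Another expression minimum leaves each log2 difference as it was. So does leaving out a library of the other line in a contrast within 1 line. The line difference called 6 of the 7 members other than cdaa and 5 to 7 without single libraries. For the shared slope, 0 members and 0 genes passed, and 5 members and 4942 genes passed with density as a factor (limma F test). For large against small seeding, 5 members were called as deposited, all lower. With either rescaling 1 of these was still called lower (cad), and 1 not among them was called higher (dhodh). Over all genes this contrast called 6622 as deposited, 6124 with median-of-ratios scaling and 5796 with quantile normalization. In SFL, 4 calls became 0 after quantile normalization and 0 to 4 without single libraries; in CFL, 2 became 0 to 3. Over all genes, the SFL contrast called 3716 genes, 1943 without a filter, 1885 after quantile normalization and 0 to 4377 without single libraries; the CFL contrast called 5026, and 437 to 5284 without single libraries. For the difference in seeding effect, 0 genes passed, and 0 to 5 without single libraries. The cause of these changes was not tested. Fits that leave out a library also have fewer degrees of freedom, and the part of this was not tested either.

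The seeding effect of uck2b changed sign to 0.0729 in both lines together, 0.0775 in CFL and 0.0683 in SFL after median-of-ratios scaling, and to 0.088, 0.0554 and 0.1205 after quantile normalization. After median-of-ratios scaling, upp1 in CFL turned to 0.1523 and umps in SFL to 0.0061. The difference of the seeding effect between the lines turned to 0.0032 for cad and 0.0092 for uck2b. Without single libraries, that difference ran from -0.1396 to 0.0305 for cad, -0.321 to 0.1989 for uck2b and -0.1018 to 0.4605 for tk1, and the shared seeding effect of cdaa from -0.2028 to 0.4422. None of these had been called. With density as a replicate block, the line difference of cad was the one member call that changed (adjusted p = 0.00385). TPM keeps no depth, so the precision of low values such as those of cdab and upp2 is unknown.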
